A study of Mus musculus with 6 samples.

Results

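The lymphocytes described here are the B, T and natural killer (NK) cells that remained among stromal vascular cells of mouse inguinal white adipose tissue (iWAT) after CD45+ immune cells had been sorted out. They were chosen by their UMIs, molecular tags that let each captured transcript be counted once. A barcode (the tag of 1 droplet called as a cell) had to hold at least 500 UMIs with under 10% from mitochondrial genes, fewer than 30 UMIs of the fibroblast gene Dcn per 10000, none of the macrophage genes C1qa and C1qb, and at least 2 UMIs in all of Cd79a, Cd79b, Vpreb3, Cd3e, Cd3d and Nkg7. This rule left 264 of 68103 barcodes, or of the 63404 that passed the first 2 limits. Of these, 142 held UMIs of the B-lineage genes only (Cd79a, Cd79b, Vpreb3), 114 of the T/NK genes only (Cd3e, Cd3d, Nkg7), and 8 of both. The levels of these marker genes are therefore a description of the choice and not a result.

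Mice were male C57BL/6, young (9 weeks) or aged (57 weeks), and came from the National Institute on Aging (C57BL/6JN) or the Jackson Laboratory (C57BL/6J). Each age contributed 1 library from thermoneutrality (TN, 30 °C), 1 after 3 days at 6 °C (3D cold) and 1 after 14 days at 6 °C (14D cold), all following acclimation to 30 °C. The study asked how aging changes the precursor cells that make beige adipocytes in the cold, and the sort was meant to remove the cells described here. The methods give no number of mice for a single-cell library. For the isolation of stromal vascular cells they state that mice were pooled only where indicated, and no pooling is indicated for these libraries. They also state that the inguinal lymph node was taken out of iWAT before processing other than histology. The sort described was for live, DAPI-negative and CD45-negative cells. With 1 library for each age and temperature, the 3 libraries of an age stood as its replicates, and p-values measure the spread between libraries. Values given for 6 libraries are in the order young TN, young 3D cold, young 14D cold, aged TN, aged 3D cold and aged 14D cold.

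B cells recognise antigen through a receptor of immunoglobulin heavy and light chains that signals through Cd79a and Cd79b, and T cells through a T cell receptor that signals through the CD3 chains. A developing B cell, in the bone marrow, first pairs its new heavy chain with a surrogate light chain, encoded by Vpreb1, Vpreb2 and Igll1. Later it makes a true light chain instead. Rag1, Rag2 and Dntt act at these stages to cut and join the receptor gene segments, while genes of antigen presentation through MHC class II, such as Cd74, come on strongly later.

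The surrogate light chain genes Vpreb1 and Igll1 were among the genes lower in aged lymphocytes, and the 300 bases around the start of all 3 surrogate light chain genes are shown so that their regulatory sequence can be read beside their levels, with Cd79a, a B-lineage gene expressed in the libraries of both ages, for comparison. Sequences run 5′ to 3′ on the strand of the gene, from 250 bases before the start to 50 after it (RefSeq, GRCm38.p6). Capitals mark CAGGTG, an E-box that E2A-type factors can bind, or its reverse complement CACCTG. The windows lie at chr16:16869206-16869505 on the minus strand (Vpreb1), chr16:17980315-17980614 on the plus strand (Vpreb2), chr16:16863936-16864235 on the minus strand (Igll1) and chr7:24897247-24897546 on the plus strand (Cd79a).
Vpreb1: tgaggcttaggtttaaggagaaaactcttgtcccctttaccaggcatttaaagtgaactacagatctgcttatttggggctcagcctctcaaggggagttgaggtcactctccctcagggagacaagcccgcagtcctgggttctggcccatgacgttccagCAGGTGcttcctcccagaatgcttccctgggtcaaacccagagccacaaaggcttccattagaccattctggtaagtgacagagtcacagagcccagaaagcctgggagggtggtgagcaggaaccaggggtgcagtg
Vpreb2: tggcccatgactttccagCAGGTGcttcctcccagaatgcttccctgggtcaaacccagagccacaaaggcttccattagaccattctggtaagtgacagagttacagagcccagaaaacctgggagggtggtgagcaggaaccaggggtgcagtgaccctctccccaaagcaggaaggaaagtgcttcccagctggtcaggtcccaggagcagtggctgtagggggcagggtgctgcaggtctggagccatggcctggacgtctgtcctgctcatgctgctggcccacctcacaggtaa
Igll1: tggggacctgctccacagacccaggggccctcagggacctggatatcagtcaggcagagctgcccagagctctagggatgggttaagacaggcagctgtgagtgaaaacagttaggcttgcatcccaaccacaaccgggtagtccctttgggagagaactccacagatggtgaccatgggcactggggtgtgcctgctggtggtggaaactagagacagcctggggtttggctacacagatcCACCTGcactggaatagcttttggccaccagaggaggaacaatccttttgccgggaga
Cd79a: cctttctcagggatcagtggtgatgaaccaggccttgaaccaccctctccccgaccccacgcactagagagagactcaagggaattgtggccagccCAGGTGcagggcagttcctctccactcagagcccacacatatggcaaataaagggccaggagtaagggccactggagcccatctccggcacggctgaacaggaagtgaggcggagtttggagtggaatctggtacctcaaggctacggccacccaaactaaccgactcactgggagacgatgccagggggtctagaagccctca
Each of the 4 windows held 1 match, which began 88 bases before the RefSeq start of Vpreb1, 232 before that of Vpreb2, 8 before that of Igll1 and 154 before that of Cd79a. The windows of the T cell genes Cd3e and Cd3d also held 1 each and that of Vpreb3 none, and of 32851 promoters of this length 20.2% held the same 6 bases on either strand. The motif of the B-lineage factor EBF1 was searched as well, in a strict palindromic form only. That form matched none of the 4 windows and 0.904% of all promoters. Sites that depart from it were not searched, so this search cannot show that the windows lack EBF1 sites. Vpreb1 (chr16:16868403-16870843, minus strand) and Igll1 (chr16:16860671-16863985, minus strand) are neighbours, and Vpreb2 lies at chr16:17980428-17981273 on the plus strand. These extents are those of GENCODE M21, which start farther upstream for Vpreb1 and Vpreb2 than the RefSeq starts on which the windows and distances rest. The transcripts of Vpreb1 and Vpreb2 (773 and 759 bases) share an unbroken run of 196 bases, so the division of counts between these genes is uncertain.

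The libraries held 10172, 11342, 12033, 11218, 11435 and 11903 barcodes, with a median of 8954, 7809.5, 7225, 6232, 6540 and 2588 UMIs per barcode. Lymphocytes numbered 56, 42, 101, 37, 16 and 12 in the same libraries. Their own median depth varied less than that of all barcodes, with 3838, 3250, 2930, 3420, 3860 and 2980 UMIs. Across libraries, 524 barcodes were found in 2 or more, as were the barcodes of 10 lymphocytes, and no 2 lymphocytes had the same barcode. At the edge of the rule, 13 lymphocytes had exactly 2 marker UMIs and 84.6% of these also held a UMI of a pan-leukocyte gene, against 100% of the 251 with 3 or more. Of the 62 barcodes just outside it, with 1 marker UMI, 25.8% held one.

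The names were checked against genes that the rule had not used. In CPM, the UMIs of a gene per 1000000 UMIs of a class, 14 pan-leukocyte genes summed to 8313 in B-lineage and 8048 in T/NK barcodes, against 147 in the 54134 barcodes with Dcn at or above the limit, called Dcn-high here, which are mostly fibroblasts. Genes of B cell identity summed to 6625 CPM in B-lineage and 131 in T/NK barcodes, immunoglobulin constant regions to 33088 and 122, and MHC class II genes to 20053 in B-lineage barcodes. A single young 14D cold barcode held 13694 of the 18883 B-lineage UMIs of the immunoglobulin list, which stood at 9667 CPM without it. Genes of the T cell receptor and T cell identity summed to 6704 CPM in T/NK and 205 in B-lineage barcodes. Ms4a1, Pax5, H2-Aa, H2-Ab1 and Igkc were at 0 in the T/NK barcodes, and Trbc1, Trbc2, Cd3g, Cd8a, Cd8b1 and Cd6 at 0 in the B-lineage barcodes. A few B-lineage barcodes went against the name. Those of 3205 UMIs in young 14D cold and 2887 UMIs in aged 14D cold had 2 marker UMIs, none of Cd74, MHC class II, immunoglobulin and Ptprc, and 277 and 260 UMIs of the endothelial gene Fabp4. A barcode in aged 3D cold with 2 marker UMIs, no light chain, 75 Cd74 and 39 Tyrobp UMIs, the last a gene of myeloid and NK cells, supplied 20164 of the 35717 B-lineage UMIs of its library, so the B-lineage CPM of aged 3D cold lean on it. All 3 were dropped by a limit of 3 marker UMIs, under which the B-lineage share differed between the ages by -0.252 percentage points, against -0.253 (exact permutation p = 0.1 for both, 3 libraries an age).

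The 8 mixed barcodes all held T cell receptor UMIs and more T/NK than B-lineage marker UMIs, and 7 of them had a single B-lineage marker UMI.

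**Figure D1:**
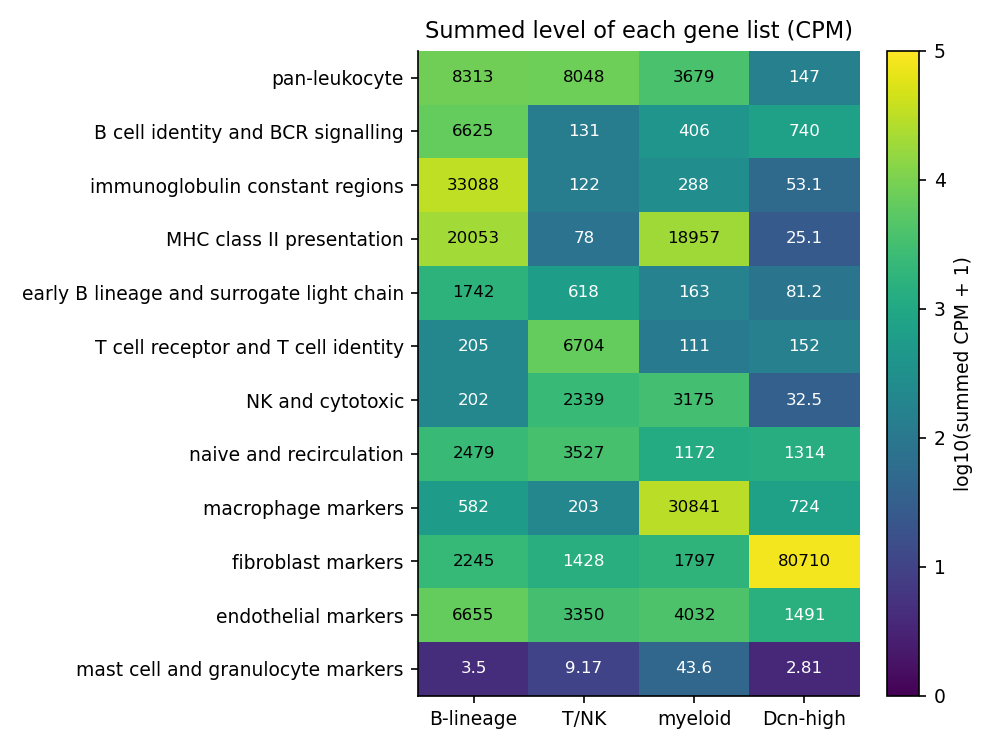
Summed level of 12 gene lists (rows) in B-lineage, T/NK, myeloid (at least 2 UMIs of C1qa and C1qb together) and Dcn-high barcodes (columns), all 6 libraries pooled; the printed number is the summed CPM and the colour its log10(CPM + 1). Immunoglobulin and B cell lists are highest in B-lineage barcodes, the T cell receptor list in T/NK barcodes, and the pan-leukocyte list is at 8313 and 8048 CPM in the lymphocytes against 147 in Dcn-high barcodes.

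RNA of other cells was present in both classes and is given here for all results below. Fibroblast markers summed to 2245 CPM in B-lineage and 1428 in T/NK barcodes (80710 in Dcn-high barcodes), and 51 of the 264 lymphocytes held no UMI of Dcn, Col1a1, Col1a2 and Col3a1. Endothelial markers summed to 6655 and 3350 CPM, led by the fatty acid binding protein gene Fabp4, which was concentrated in 16 lymphocytes with 20 or more Fabp4 UMIs. Fabp4 in B-lineage barcodes stood at 4607, 48.0, 4085, 7214, 84.0 and 31112 CPM, so its level followed single libraries and not age. Macrophage markers were at 582 and 203 CPM and mast cell and granulocyte markers at 3.50 and 9.17. Doublets, droplets that caught 2 cells, were not called, and their part in these values was not tested.

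Lymphocytes made up 0.603%, 0.397% and 0.895% of kept barcodes of the young and 0.359%, 0.150% and 0.106% of those of the aged libraries. Under this rule, every young library lay above every aged library. In aged 14D cold, 35 barcodes outside the rule held 100 or more UMIs of the light chain gene Igkc, and 34 of these were Dcn-high. The other libraries held 0, 1, 0, 0 and 1 such barcodes in their order. None of these barcodes is counted here, and their effect on the shares was not tested. The mean was 0.632% ± 0.250 (SD, n = 3) in young and 0.205% ± 0.135 (SD, n = 3) in aged libraries, a 3.08-fold difference, and a two-sided exact permutation test over libraries gave p = 0.1, the smallest that 3 against 3 libraries allow. These are shares of cells that had escaped a sort on CD45, so a difference in the number of lymphocytes in the tissue and one in the efficiency of the sort cannot be told apart. The difference shrank from -0.427 to -0.0273 percentage points (exact permutation p = 0.6) when only the 51 lymphocytes without fibroblast UMIs were counted, and to -0.259 (p = 0.1) under a limit of 5% mitochondrial UMIs (both exact permutation tests). Counted per 100 Dcn-high barcodes, an alternative added after seeing the data, the difference was -0.473 (exact permutation p = 0.2).

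Both classes were less frequent on average in the aged libraries. B-lineage barcodes formed 0.291%, 0.217% and 0.541% of young and 0.136%, 0.0658% and 0.0884% of aged libraries. Under this rule the ages did not overlap. The mean share was 0.350% ± 0.169 in young and 0.0967% ± 0.0357 in aged libraries (SD, n = 3 each). This was a 3.62-fold difference with an exact permutation p of 0.1. Not counted were the 35 Igkc-rich barcodes outside the rule in aged 14D cold, which had 10 B-lineage barcodes. Of the 35, 25 held no UMI of Cd79a, Cd79b and Vpreb3. The difference of -0.253 percentage points became -0.119 under the 5% mitochondrial limit (exact permutation p = 0.1), -0.157 without the young 14D cold library (p = 0.1) and -0.0144 among barcodes without fibroblast UMIs (p = 0.7). T/NK barcodes formed 0.302%, 0.170% and 0.346% of young and 0.194%, 0.0658% and 0.0177% of aged libraries, so that aged TN exceeded young 3D cold. The T/NK means were 0.272% ± 0.0913 and 0.0925% ± 0.0911 (SD, n = 3 each; exact permutation p = 0.2), and thinning every barcode to 1000 UMIs before the rule was applied took the difference from -0.180 to -0.0783 percentage points (p = 0.2), against -0.0131 (p = 0.6) without fibroblast UMIs.

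**Figure D2:**
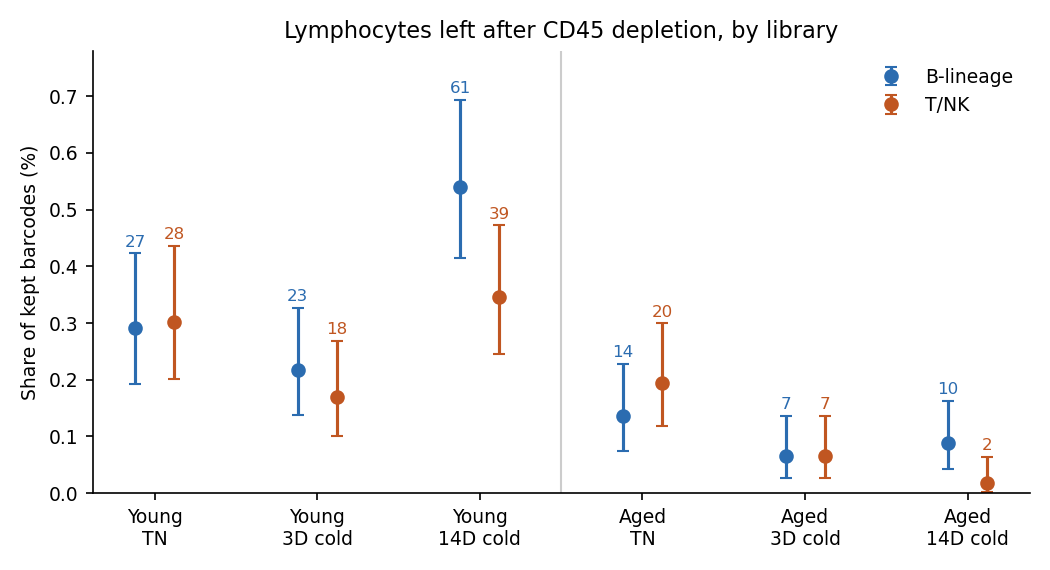
Share of kept barcodes (%, vertical axis) that were B-lineage (blue) or T/NK (orange) in each library, with exact binomial 95% intervals that cover counting error only; numbers above the points are barcodes. All 3 young B-lineage shares lie above all 3 aged shares, and the aged TN share of T/NK barcodes lies above the young 3D cold share.

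The balance of the classes showed no age difference beyond the spread of libraries. B-lineage barcodes were 55.4% ± 5.99 of B-lineage plus T/NK barcodes in young and 58.2% ± 22.2 in aged libraries (SD, n = 3 each; exact permutation p = 0.9). The ratio of lymphocytes to myeloid barcodes, defined by at least 2 UMIs of C1qa and C1qb together, had log2 values of 1.87, 1.12, 4.50, 1.84, -0.51 and -0.40. The aged mean minus the young mean was -2.19 (n = 3 each, SD 1.77 in young and 1.32 in aged; exact permutation p = 0.2), and without young 14D cold the difference was -1.19 (p = 0.3). Pooled over the ages, cold exposure gave no clear shift. Lymphocytes were 0.387% ± 0.362 over the 4 cold and 0.481% ± 0.173 over the 2 TN libraries (SD, exact permutation p = 0.867). This test did not block by age, so the spread between ages entered it, and the smallest p it allows is 0.0667. In aged libraries the cold shares (0.150% and 0.106%) lay below TN (0.359%). In young libraries 0.397% lay below and 0.895% above TN (0.603%).

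The transcript of the sorted antigen itself was unevenly present. Ptprc, the gene of CD45, had UMIs in 112 of 114 T/NK barcodes (98.2%) and in 86 of 142 B-lineage barcodes (60.6%, exact binomial 95% interval 52.0% to 68.7%), against 0.188% of Dcn-high barcodes. B-lineage barcodes were shallower, with a median of 2539 UMIs against 3929.5. After thinning to 1000 UMIs each, Ptprc was found in 61.4% of T/NK and 29.3% of B-lineage barcodes, while Cd53, another leukocyte membrane gene, was found in 28.1% and 27.9%. T/NK barcodes held 1029, 601, 671, 951, 408 and 979 CPM of Ptprc. B-lineage barcodes held 342, 448, 291, 501, 392 and 360 CPM of Ptprc, below the T/NK value in each of the 6 libraries, although in aged 3D cold the values were close and 1 deep barcode led each sum (20164 of 35717 B-lineage and 26615 of 49070 T/NK UMIs). No test was made between classes, because the classes were set by genes of the same cells.

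Genes that set the B-lineage barcodes apart from the T/NK barcodes, as a description, were led by the light chain genes Igkc and Iglc1, the heavy chain gene Ighg2c, the MHC class II genes H2-Aa, H2-Ab1 and H2-Eb1, the chemokine gene Cxcl13 and the invariant chain gene Cd74. They were followed by the immunoglobulin joining chain Jchain, the plasma and innate-like B cell chaperone Mzb1, and Ly6d. Single barcodes carried some of these genes: 1 in young 14D cold held all 3333 Ighg2c UMIs, 4138 of 4211 of Iglc1 and 567 of 581 of Jchain, and 1 in young TN held 1297 of 1302 of Cxcl13. Cd74 stood at 12787, 13619, 9540, 18132, 12403 and 11330 CPM in B-lineage barcodes, 277-fold above T/NK barcodes. The transcription factor Ebf1, needed for B cell commitment, stood at 1863, 3740, 1808, 1643, 1204 and 1768 CPM. Ms4a1, the CD20 gene of mature B cells, stood at 351, 400, 455, 362, 392 and 420 CPM, and at 900.1 CPM in aged 3D cold without the deep barcode described above. Ighm, the IgM heavy chain, had UMIs in 136 and Ighd, the IgD heavy chain of naive B cells, in 96 of the 142, while switched heavy chain genes had UMIs in 8.

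The B-lineage barcodes fell into a group with surrogate light chain transcripts and a larger group without. At least 1 UMI of Vpreb1, Vpreb2 or Igll1 was found in 3 of 27 young TN, 6 of 23 young 3D cold and 13 of 61 young 14D cold B-lineage barcodes, and in none of 14 aged TN, 7 aged 3D cold and 10 aged 14D cold barcodes. In all, 22 of 111 young barcodes held one (19.8%, exact binomial 95% interval 12.9% to 28.5%) and 0 of 31 aged barcodes (exact binomial upper limit 11.2%; 3 counts of 31 would be 9.68%). The mean share was 19.5% ± 7.65 in young libraries (SD, n = 3) and 0 in the 3 aged libraries (exact permutation p = 0.1, the smallest possible). This comparison was chosen after the data had been seen. After thinning to 1000 UMIs, the counts were 21 of 109 young and 0 of 31 aged barcodes, with 2 young barcodes too shallow to be used. Leaving Vpreb3 out of the rule kept the counts at 3, 6 and 13 in young and 0 in each aged library.

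Surrogate light chain UMIs were also looked for in cells that should lack these genes. No T/NK barcode held a surrogate light chain UMI, with 0 of 85 in young and 0 of 29 in aged libraries, at median depths of 3883 and 3952 UMIs. Among Dcn-high barcodes, 0.738% in young and 0.442% in aged libraries held one, at median depths of 8486.5 and 6502.5 UMIs, as did 2 of 38 young and 1 of 49 aged myeloid barcodes. The 22 barcodes held a median of 20.5 such UMIs and at most 55, and 1 of them held a single UMI. Outside the lymphocytes, 3 young Dcn-high barcodes held 3 or more, with up to 54 in a barcode, as did 2 other young kept barcodes, with up to 37, and no aged barcode of these classes did. Of the surrogate light chain UMIs of the libraries, 146, 87, 84, 52, 44 and 37 lay in kept barcodes outside the lymphocytes and 101, 97, 288, 0, 0 and 0 within them, and the part of free RNA in these values was not tested.

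**Figure D3:**
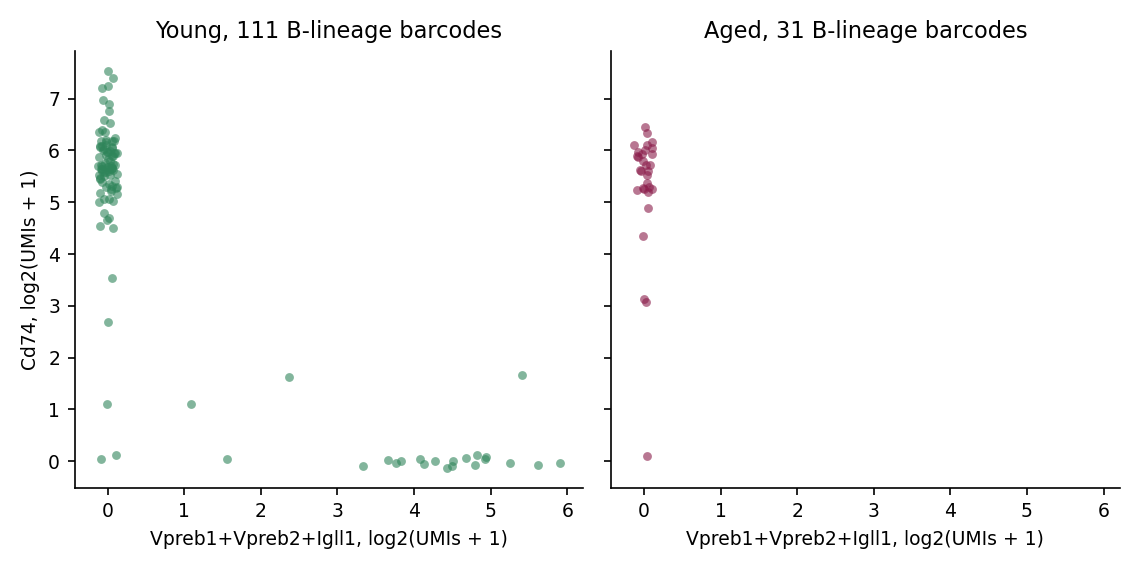
Summed Vpreb1, Vpreb2 and Igll1 (horizontal axis) against Cd74 (vertical axis), each as log2(UMIs + 1), in 111 young (left) and 31 aged (right) B-lineage barcodes; each point is 1 barcode, moved slightly at random so that points do not hide each other. The 22 young barcodes with surrogate light chain UMIs lie at the foot of the Cd74 axis, and no aged barcode holds such a UMI.

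The 22 barcodes differed from the other 120 B-lineage barcodes in the genes of B cell maturation, here as a description without a test because the same cells defined the groups. Dntt, which adds bases at the joints of receptor segments, had UMIs in 15 of the 22 and in none of the 120, and Rag1, Rag2 or Dntt in 19 of the 22 and 2 of the 120. One of these 2 was an aged TN barcode with 2 UMIs of Rag1, 25 marker UMIs and 6 of Vpreb3, beside 7 of Cd74. Vpreb3 was found in all 22 and in 42 of the 120. The progenitor transcription factors Sox4 (21 of 22 against 9 of 120), Myb (19 against 4) and Lef1 (15 against 3) followed the same division. Ebf1 was also higher, at 4359 against 1455 CPM.

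Genes of mature B cells were low in the 22. Cd74 had 5 UMIs in all, in 3 barcodes, against 6526 UMIs in 117 of the 120 others, a 288-fold difference in CPM. H2-Aa was found in 2 of 22 against 114 of 120, Ms4a1 in 1 against 85, Ighd in 2 against 94, and the homing receptor gene Ccr7 in none against 89. The light chain gene Igkc was found in 12 of 22 against 114 of 120, while Ighm was at similar levels, with 1657 and 1735 CPM, in 21 and 115 barcodes. Ptprc was found in 8 of the 22 (36.4%) and in 78 of the 120 (65.0%), at median depths of 3517 and 2499 UMIs. The mitotic genes Mki67, Top2a, Cdk1 or Birc5 were found in 4 of the 22 and 8 of the 120, and the chromatin gene Hmgb2, of the wider cell cycle list, in 21 and 65. One of the 22, in young 14D cold, also held 198 UMIs of the smooth muscle gene Acta2 among its 25536 UMIs.

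For the test of age across all genes, the UMIs of all lymphocytes of a library were summed, giving 252872, 232491, 483529, 185192, 159255 and 40513 UMIs. Of 2947 genes tested by edgeR, fitting age beside temperature in its quasi-likelihood framework, 4 passed an adjusted p of 0.05 (0.136%), none higher and 4 lower in aged libraries, and 104 had an unadjusted p under 0.05. DESeq2 also called 4. The 4 genes were Vpreb1, Igll1, Mzb1 and Igkc. The median log2 fold change of all genes was -0.02, and 251 genes (8.52%) had every young library above or below every aged one. The sums mix both classes, whose balance in barcodes is given above. In UMIs, B-lineage barcodes supplied 465706 of 968892 in young and 104984 of 384960 in aged libraries. By library they supplied 111126, 62560, 292020, 35904, 35717 and 33363 UMIs, and the part of this mix in the age effects was not tested. In sums of this kind, fewer cells of a type and less RNA per cell cannot be told apart. The count rested on single libraries, since 0 genes passed without young 3D cold and 0 without young 14D cold, but 40 without young TN (30 higher and 10 lower in aged libraries) and 28 without aged TN (21 higher and 7 lower).

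Vpreb1 and Igll1 were absent from the lymphocytes of all aged libraries. Vpreb1 stood at 221, 224 and 350 CPM in the young libraries and at 0 in each aged library, at least 36.7-fold lower in aged lymphocytes with 3 counts over the group as the floor (adjusted p = 0.0168, edgeR). Its adjusted p ranged from 1.13e-12 to 0.227 over the alternatives, and it was lost without young 3D cold (0.227) or young 14D cold (0.132). Igll1 stood at 123, 120 and 199 CPM and at 0 in each aged library, at least 20.5-fold lower by the same floor (adjusted p = 0.0276, edgeR). Its adjusted p ranged from 1.81e-08 to 0.454, and the call was lost without young 3D cold (0.454), young 14D cold (0.353) or aged 3D cold (0.0988). Vpreb2 had 54 UMIs in young and 0 in aged lymphocytes. In a fit of the B-lineage barcodes alone, added later with a minimum of 5 barcodes per library, 0 of 605 genes passed (0%, with 53 or 8.76% not overlapping between the ages), with 21 at an unadjusted p under 0.05 and 2 called by DESeq2, and Vpreb1 had an adjusted p of 0.0871 and Igll1 of 0.167 (edgeR).

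Mzb1 and Igkc were lower in aged lymphocytes, with less even support. Mzb1 stood at 277, 189 and 910 CPM in young and 59.4, 25.1 and 148 CPM in aged libraries, with no overlap, and fell by 2.57 on the log2 scale (SE 0.37, adjusted p = 0.0276, edgeR). It was found in 18 of the 22 barcodes with surrogate light chain UMIs and 63 of the 120 others. Without the 11 lymphocytes above 20000 UMIs, an alternative added after seeing the data, the log2 fold change of Mzb1 was -1.65 (adjusted p = 0.0291). The adjusted p of Mzb1 ranged from 5.41e-05 to 0.766. The call was lost without young 3D cold (0.596), young 14D cold (0.389), aged 3D cold (0.202) or aged 14D cold (0.0747). It was also lost without the temperature term, at a log2 fold change of -2.98 (adjusted p = 0.766, edgeR).

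Igkc stood at 2863, 2340 and 16024 CPM in young and 1264, 666 and 6640 CPM in aged libraries, so the ages overlapped. It fell by 1.47 on the log2 scale (SE 0.22, adjusted p = 0.0276, edgeR). This fall covers the lymphocytes only. Over all barcodes of each library, Igkc UMIs numbered 880, 845, 8214, 300, 629 and 14532. In aged 14D cold, 14263 of them lay outside the lymphocytes. Without the 11 lymphocytes above 20000 UMIs, the log2 fold change of Igkc in lymphocytes was -0.29 (adjusted p = 0.999, edgeR). Over the alternatives, its adjusted p ranged from 3.11e-14 to 0.9999. The call was lost without young 3D cold (0.694), young 14D cold (0.644), aged 3D cold (0.805) or aged 14D cold (0.345). Without the temperature term it was also lost, at a log2 fold change of -1.42 (adjusted p = 0.9997, edgeR). Among lymphocytes without fibroblast UMIs the values were -0.93 and 0.9999. A single young 14D cold barcode of 33938 UMIs held 6122 of the 7748 Igkc UMIs of that library's lymphocytes, with 567 Jchain, 3333 Ighg2c and 4159 Iglc UMIs. Igkc lies at chr6:70726435-70726966 on the plus strand and encodes the constant region of the kappa light chain. With temperature as the effect and age as a term, Igkc was the 1 gene of 2947 (0.0339%) that passed (adjusted p = 0.00118, edgeR; DESeq2 called 4), and none passed without young 14D cold.

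**Figure D4:**
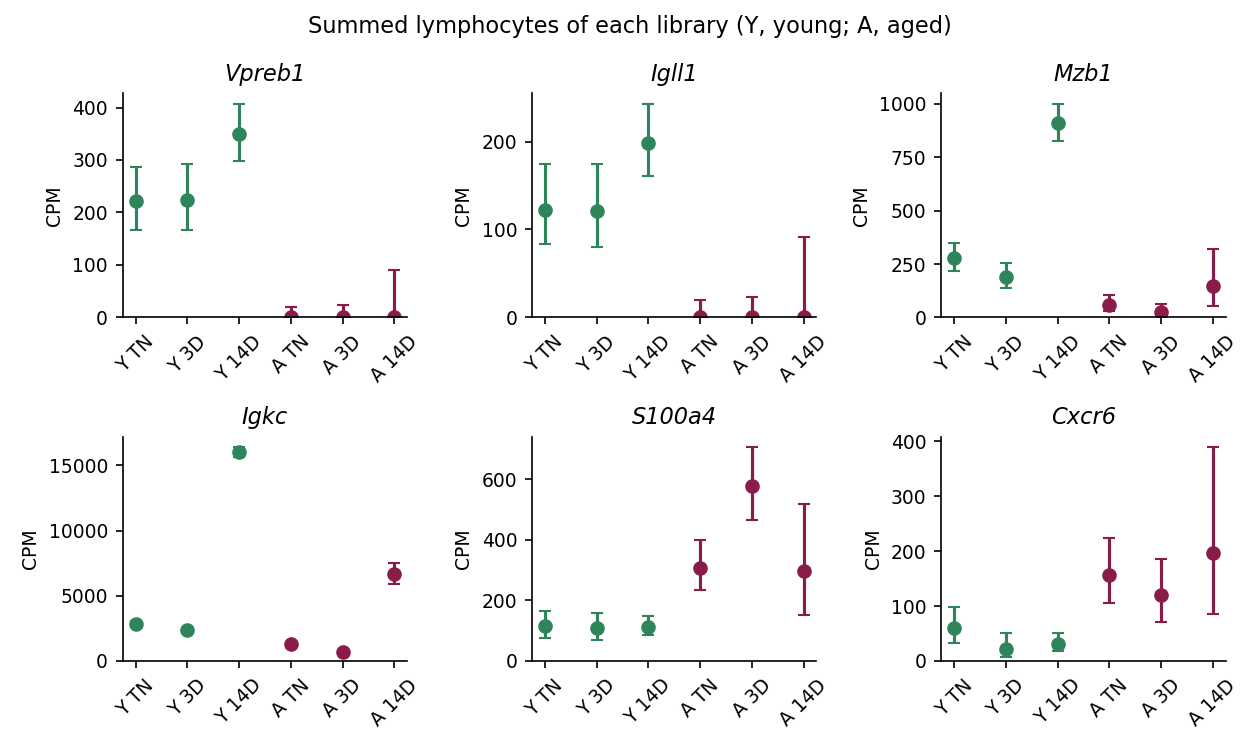
CPM in the summed lymphocytes of each library (Y, young, green; A, aged, dark red) for the 4 genes past the threshold and for S100a4 and Cxcr6, with exact Poisson 95% intervals that cover counting error only. Vpreb1 and Igll1 are at 0 in all aged libraries, Mzb1 does not overlap between the ages, Igkc does, and S100a4 and Cxcr6 are above the young libraries in all aged libraries but did not pass the test.

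With all libraries and the filter on low counts, no gene was called higher with age, against 30 without young TN, 21 without aged TN, 8 without the filter and 7 without the 11 lymphocytes above 20000 UMIs. S100a4, a calcium-binding protein gene of activated and memory lymphocytes, stood at 115, 108 and 114 CPM in young and 308, 578 and 296 CPM in aged lymphocytes, a log2 fold change of 1.71 (adjusted p = 0.268, edgeR). Cxcr6, a chemokine receptor gene of T cells held in tissues, stood at 59.3, 21.5 and 31.0 CPM in young and 157, 119 and 197 CPM in aged lymphocytes, a log2 fold change of 2.03 (adjusted p = 0.316). Neither gene overlapped between the ages. For Cxcr6, 1 T/NK barcode held 23 of the UMIs in aged TN, and 1 held all 8 in aged 14D cold. Both genes passed without the 11 lymphocytes above 20000 UMIs (adjusted p = 0.000374 for S100a4 and 0.000983 for Cxcr6) and without young TN (0.0249 and 0.0159). They passed under none of the other alternatives, with adjusted p of up to 0.9998 for both, reached without aged 3D cold. These 2 genes were chosen after their values were seen.

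By group, the genes of early B cells and the surrogate light chain had 2 of 7 tested members lower in aged lymphocytes (Vpreb1 and Igll1), with a median log2 fold change of -0.76, against 4 of all 2947 genes (0.136%) and a median of -0.02. Immunoglobulin constant regions had 1 of 5 lower (Igkc, median -0.89) and plasma cell genes 1 of 2 (Mzb1, median -1.54). Each of these 4 calls was lost without young 3D cold and also without young 14D cold. None of 15 genes of B cell identity (median -0.65), 9 of MHC class II (median -0.16), 20 of the T cell receptor and T cell identity (median 0.08), 10 of naive and recirculating cells (median -0.57) or 9 of tissue residency (median 0.14) passed. The 14 genes of dissociation stress (median 0.01) and the 12 of the cell cycle (median 0.23) had no call either. In simulated data this fit recovered 4% of genes with a log2 change of 1, so the lack of a call does not show a lack of change. Of markers of other cells, 0 of 5 fibroblast genes (median -0.94) and 0 of 9 endothelial genes (median 0.33) passed. In the B-lineage sums, where no gene passed, the median was 0.06 for B cell identity (8 genes) and 0.18 for MHC class II (7 genes). There it was -5.35 for early B genes (4 tested), -0.47 for immunoglobulin (5 tested) and -2.21 for the 1 plasma cell gene tested.

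The T/NK barcodes were mainly T cells by their receptor genes. Trbc1 or Trbc2, the constant regions of the beta chain, had UMIs in 110 of 114 barcodes, and Trac, that of the alpha chain, in 88. Genes of the gamma-delta receptor were found in 10 barcodes. Nkg7 without any CD3 UMI was found in 8, of which 7 held the NK receptor genes Ncr1 or Klrb1c. The remaining barcode, of 5869 UMIs in young 14D cold, held 4 Nkg7 UMIs and none of Ptprc, Trac, Trbc1, Trbc2, Gzma and Ccl5. Its T/NK name rests on Nkg7. Most of these 8 also held UMIs of Trbc1 or Trbc2, so those genes alone did not separate T from NK cells here. Genes that led T/NK over B-lineage barcodes, as a description, were Trbc2, the chemokine Ccl5, Ms4a4b, Trac, Trbc1, Cd3g and the granzyme gene Gzma. Trbc2 stood at 1394, 1183, 1481, 1643, 774 and 699 CPM.

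Transcripts of the cytotoxic co-receptor were seen more often than those of the helper co-receptor. Cd8a or Cd8b1 had UMIs in 51 of the 114 T/NK barcodes (44.7%, exact binomial 95% interval 35.4% to 54.3%) and Cd4 in 13 (11.4%, 6.21% to 18.7%), with 1 barcode holding both and 51 holding neither. In B-lineage barcodes Cd8a and Cd8b1 were at 0 and Cd4 was found in 1 of 142. By library, Cd8 UMIs were found in 13 of 28, 8 of 18, 19 of 39, 10 of 20, 1 of 7 and 0 of 2 barcodes, and Cd4 UMIs in 3, 3, 3, 3, 0 and 1. Cd8 UMIs outnumbered Cd4 in every library but aged 14D cold, which had 2 T/NK barcodes. Foxp3, the factor of regulatory T cells, was found in 2 T/NK barcodes and in 2 of the 8 mixed barcodes, which also held T cell receptor UMIs.

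Genes of recirculating and of tissue-held T cells varied between libraries. Ccr7, a receptor for entry into lymph nodes, stood at 693, 753, 629, 582, 61.1 and 280 CPM in T/NK barcodes, each aged value below each young one. The value of aged 3D cold rested on 3 UMIs and that of aged 14D cold on 2, each in 1 barcode. They lay at and under the limit of 3 counts, which was 61.1 and 420 CPM. The share of all genes without overlap in T/NK sums was not counted. Thinned to 1000 UMIs, Ccr7 was found in 40 of 85 young and 9 of 29 aged T/NK barcodes, with shares that overlapped between the ages by library. S100a6, a calcium-binding protein gene, stood at 190, 340 and 501 CPM in young and 905, 1712 and 1958 CPM in aged T/NK barcodes. After thinning to 1000 UMIs, S100a6 was found in 3 of 28, 3 of 18 and 5 of 39 young and in 8 of 20, 5 of 7 and 1 of 2 aged T/NK barcodes, again without overlap. In aged 3D cold, 1 barcode supplied 26615 of the 49070 T/NK UMIs. In the sums of all lymphocytes its log2 fold change was 1.28 (adjusted p = 0.905, edgeR). Before thinning, S100a6 UMIs were in 29 of 85 young and 21 of 29 aged T/NK barcodes and in 42 of 142 B-lineage barcodes. Dcn-high barcodes held 3797 CPM of S100a6 in young and 4811 CPM in aged libraries, and the part of their RNA in these values was not tested.

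Cxcr6 in T/NK barcodes stood at 109, 30.3, 79.9, 249, 387 and 1119 CPM, the last from 8 UMIs, and was at 0 in B-lineage barcodes. Single barcodes led the first and the last aged value. One of 14838 UMIs held 23 Cxcr6 UMIs in aged TN, and 1 of 3901 UMIs held all 8 in aged 14D cold. Thinned to 1000 UMIs, Cxcr6 was found in 7 of 85 young and 3 of 29 aged T/NK barcodes. By library, the young counts were 2 of 28, 2 of 18 and 3 of 39. The aged counts were 0 of 20, 2 of 7 and 1 of 2, so the shares overlapped between the ages. The shares of aged 3D cold and aged 14D cold lay above each young share, and that of aged TN below each. The chemokine gene Ccl5 stood at 1218, 425, 400, 1800, 4096 and 0 CPM in T/NK barcodes and so overlapped between the ages. Ccr7, S100a6, Cxcr6 and Ccl5 in T/NK barcodes were chosen after their values were seen. The age effect was not tested in T/NK barcodes alone, because aged 3D cold held 7 and aged 14D cold 2 of them, under the minimum of 10 set for a fit.

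Lymphocytes and Dcn-high barcodes of the same libraries differed in their age effect for few genes. A test of this difference (edgeR's quasi-likelihood test over 12 sums) called 33 of 13907 genes (0.237%), 12 with a more positive and 21 with a more negative effect in lymphocytes, while DESeq2 called 2, and 9 passed without aged 3D cold, 16 without young TN and 17 without young 14D cold. Of 57 tested genes from the B cell, immunoglobulin, MHC class II, early B and plasma cell lists, 8 were called, all with a more negative effect in lymphocytes. Besides Vpreb1, Igkc and Mzb1 these were Jchain, Ly6d, Sox4, H2-Ab1 and H2-Aa. For H2-Ab1 and H2-Aa the log2 age effect was -0.37 and -0.16 in lymphocytes and 1.47 and 1.62 in Dcn-high barcodes, and for Ly6d it was -0.22 and 1.91. For Igkc it was -1.47 in lymphocytes and 3.34 in Dcn-high barcodes. In Dcn-high barcodes neither Ly6d (adjusted p = 0.118, edgeR) nor Igkc was past the threshold. The MHC class II list summed to 11.3, 17.6, 19.0, 26.3, 25.3 and 68.7 CPM in Dcn-high barcodes, against 20053 CPM in B-lineage barcodes of all libraries. Jchain had 0, 0, 581, 0, 0 and 0 UMIs in lymphocytes, 567 of them in 1 barcode, and an age effect of 4.85 in Dcn-high barcodes. In Dcn-high barcodes Igkc stood at 0.521, 3.36, 5.05, 0.501, 7.82 and 296 CPM and Jchain at 0.165, 0.0764, 0.329, 0.125, 0.556 and 26.5 CPM, so that their fitted rise there rested on aged 14D cold (adjusted p = 0.123 for Igkc and 0.0379 for Jchain, edgeR).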

How the data were processed

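Live CD45-negative stromal vascular cells were sequenced with the 10x 3′ kit (v3.1). The authors made the deposited counts with Cell Ranger 3.1.0 on mm10: UMIs per gene and barcode, neither normalized nor filtered further (R 4.1.1 and Seurat are also named in the submitters' processing notes). No doublet caller was run here. Library totals were 52068837 to 88508349 UMIs.

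Barcodes were chosen by the marker rule given above and their UMIs summed per library. Members and gene lists were chosen with earlier results of these data known. Shares were compared by two-sided exact permutation tests over libraries. Their exact binomial intervals (95%) and the limit of 3 counts for a count of 0 cover counting error only. Age was tested on lymphocyte sums with R 4.3.3 and edgeR 4.0.16 (quasi-likelihood F test, TMM factors, filterByExpr, temperature as a term, Benjamini-Hochberg adjustment over all genes, threshold 0.05), with rule genes left out of calls; DESeq2 1.42.0 was an alternative. CPM are UMIs per 1000000 of a class in a library, without TMM factors. Named genes were the markers, list genes, called genes with at least 20 CPM on average and the same direction at all 3 temperatures, and the 12 leading genes of each class; others are marked as chosen later. The age fits were tested on simulated data with 200 changed genes. At a log2 change of 1, the fit of all lymphocytes recovered 4% of them and the B-lineage fit 29.5%. At a log2 change of 3 they recovered 84% and 93.5%, with 1 and 10 false calls. Thinning drew UMIs at random in Python 3.11.15 with numpy 2.4.6. Alternatives were other UMI, mitochondrial, marker and fibroblast limits, thinning, other denominators, leaving out each library, RLE factors, no filter, no temperature or age term and exchange of ages within temperatures. Promoters came from RefSeq and gene positions from GENCODE M21, both GRCm38. The single-nucleus libraries were not analysed here. A gene among the markers is not reported here.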

Additional observations from a re-analysis of the deposited data

Results flagged for a closer look

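The age effect in lymphocytes differed from that in Dcn-high barcodes of the same libraries, by a test of the difference itself (edgeR, adjusted p from 2.93e-23 to 0.00649), for 8 genes of the B cell lists. The differences, lymphocytes minus Dcn-high barcodes on the log2 scale, were -19.21 for Jchain, -15.49 for Vpreb1, -4.44 for Igkc, -2.92 for Mzb1, -2.27 for Sox4, -2.16 for Ly6d, -1.95 for H2-Ab1 and -1.89 for H2-Aa. The values of Jchain and Vpreb1 depend on the prior count of the fit, because all aged lymphocyte sums were at 0, and are no bounds. DESeq2 kept only Vpreb1 of the 8 past the threshold. Leaving out young 14D cold took Jchain to -4.89, and Jchain, Mzb1, Sox4, H2-Ab1 and H2-Aa were then no longer past it (adjusted p 0.0604 to 1.0). Ly6d, Sox4, H2-Ab1 and H2-Aa were lost without young TN (0.0690 to 0.699), Mzb1, Sox4, H2-Ab1 and H2-Aa without aged 3D cold (0.0917 to 0.364), Mzb1 and Sox4 without aged 14D cold (0.449 and 0.0571), and Ly6d without aged TN (0.438). Under leaving out 1 library, Vpreb1 and Igkc stayed past the threshold each time, but Igkc went to -2.54 without aged 14D cold (adjusted p = 0.0226), and Sox4 to -3.85 without aged TN.

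Immunoglobulin transcripts outside the lymphocytes stood far above the other libraries in aged 14D cold. Barcodes other than the lymphocytes held 14263 Igkc UMIs there, against 156, 301, 466, 66 and 523 in the other libraries in their order, and the lymphocytes of aged 14D cold held 269. Jchain followed, with 1263 UMIs outside the lymphocytes of aged 14D cold, against 17, 6, 26, 8 and 38, and 0 within them. In aged 14D cold, 35 barcodes outside the rule held 100 or more Igkc UMIs, 10050 in all and at most 1433 in a barcode. Of these, 34 were Dcn-high, 25 held no UMI of Cd79a, Cd79b and Vpreb3, and their median depth was 1573 UMIs. Igkc UMIs were found in 431 barcodes of that library outside the lymphocytes.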

How the results depend on the processing

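Of 95 alternatives for shares and ratios, 90 kept the direction and 5 reversed it, and none reached p under 0.05, which the design does not allow. The reversed ones were 4 for the B-lineage percent of B-lineage plus T/NK barcodes (-10.2 without fibroblast UMIs, -4.22 after thinning, -0.379 without young TN, -9.81 without aged 14D cold, against 2.77) and the cold effect without young TN (0.0283 against -0.0938). Leaving out 1 library at a time gave aged minus young differences of -0.544 to -0.295 percentage points for lymphocytes, -0.319 to -0.157 for B-lineage, -0.231 to -0.143 for T/NK, -23.7 to -16.2 for surrogate light chain barcodes, -9.81 to 11.3 for the balance, -2.95 to -1.19 for the log2 myeloid ratio, and -0.263 to 0.0283 for cold minus TN. Exchanging ages only within a temperature, a replicate block, left the lymphocyte difference at -0.427 with an exact permutation p = 0.25, the smallest that 3 pairs allow. The share with surrogate light chain UMIs could not be had without fibroblast UMIs, as too few barcodes were left.

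Of 46 alternatives for counts of calls, 18 were within 1.5 times. The age count of 4 (0 higher, 4 lower in aged) became 22 without a filter on low counts (8 higher, 14 lower), 0 without fibroblast UMIs (302 genes tested), 2 without the temperature term (no replicate block), 11 without lymphocytes above 20000 UMIs (7 higher, 4 lower), and 0 to 40 when 1 library was left out (30 of the 40 higher). The B-lineage count of 0 became 2 with DESeq2, 24 without the filter, 1 without the temperature term (no replicate block) and 0 to 9 with 1 library left out. The temperature count of 1 became 4 with DESeq2, 39 without the filter, 0 without fibroblast UMIs, 0 without the age term and 0 to 70. The count of 33 for the difference from Dcn-high barcodes became 2 with DESeq2 and 9 to 37. The cause was not tested. T/NK fits, and the B-lineage fit at the planned minimum of 10, were not run, nor was a B-lineage fit without fibroblast UMIs. The smallest lymphocyte sum, 40513 UMIs in aged 14D cold, sets a limit of 3 counts, or 74.1 CPM, on what can be seen there.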

Other observations

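A few lymphocytes stood apart from the rest and are given as values. One young TN B-lineage barcode of 24325 UMIs held 1297 UMIs of the B cell chemokine gene Cxcl13, 418 of Clu and 24 of the complement receptor gene Cr2, beside 98 of Cd74; the other 141 B-lineage barcodes held 5 Cxcl13 UMIs in all. The deepest lymphocyte, of 68304 UMIs, was a mixed barcode of aged 3D cold with 48 T/NK and 2 B-lineage marker UMIs and 55 Ptprc UMIs. Above 20000 UMIs there were 1, 2, 4, 1, 3 and 0 lymphocytes in the 6 libraries, and 1 of them, in aged 3D cold, held 1186 Fabp4 UMIs and 5 Nkg7 UMIs without CD3.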
